A study of Mus musculus with 10 samples.

Results

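A set of 9 genes of beta cell identity and glucose sensing was followed in pancreas tissue, namely Nkx6-1, Mafa, Isl1, Neurod1, Pdx1, Slc2a2, G6pc2, Abcc8 and Slc30a8. They were chosen by symbol, and all 9 were found among the 24421 genes of the deposited count table. Each library came from a piece of the pancreas tail of 1 female mouse aged 12 weeks. The mice of every group carried Ptf1aCreER, a Cre recombinase that works once tamoxifen is given and is driven by Ptf1a, an acinar cell gene, together with the nuclear reporter nTnG. The 3 libraries labelled Insr WT had the insulin receptor genotype Insrw/w, the 3 labelled Insr Het had Insrw/f and the 4 labelled Insr KO had Insrf/f, so that 0, 1 or 2 Insr alleles were floxed. The driver of Cre is not a beta cell gene, so the floxed alleles were aimed at acinar cells, and beta cells are a small part of each piece. Libraries are named by label and mouse number, as in WT-2404.

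Beta cells are the insulin-secreting cells of the pancreatic islets. They take up glucose, oxidise it, close an ATP-sensitive potassium channel and release insulin granules as calcium enters. A group of transcription factors, among them the products of Nkx6-1, Mafa, Isl1, Neurod1 and Pdx1, keeps insulin and the glucose sensing genes switched on. Several of these factors are also made in other islet cells, and Pdx1 is made at a lower level in exocrine cells. In a bulk tissue piece, fewer islet cells and less RNA per islet cell cannot be told apart.

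Total gene counts per library ranged from 11718559 to 19024351. The library WT-2404 stood apart: digestive enzyme genes took 15.7% of its gene counts and 58.3% to 77.3% in the other 9 libraries. Levels are given as counts-per-million (CPM), after scaling by TMM, a method that evens out the bulk of genes between libraries. Insr itself was at most 44.2 CPM, with a mean of 29.8 ± 9.89 (SD, n = 3) for WT and of 31.5 ± 5.96 (SD, n = 4) for KO, so the labels could not be checked by its level in whole tissue. Comparisons with WT and correlations are given with and without it.

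All 9 genes were counted in all 10 libraries and all 9 passed the filter on low counts. Counts ran from 10 for Mafa in Het-1770, with an exact Poisson 95% interval of 4.80 to 18.4 that covers counting error only, to 1695 for G6pc2 in Het-2042. After TMM scaling all 9 had their lowest level in WT-2404, and 5 of the 9 had their highest in Het-2042 or KO-2070. The TMM factor of WT-2404 was 3.54, against 0.596 to 1.56 in the other libraries, which lowers every level there. As raw counts, Mafa had 12 in WT-2404 and 10 in Het-1770, and Neurod1 had 16 in WT-2404 and 14 in WT-2067. Isl1 had 49 in WT-2404 and 17 in KO-2126, and Pdx1 had its largest count, 114, in WT-2404. For these genes the lowest place of WT-2404 depended on the scaling. Summed over the 9 genes the level was 12.3 CPM in WT-2404 and 72.4 to 199.0 CPM in the other 9 libraries.

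Among the transcription factors, Nkx6-1, a homeodomain factor needed for beta cell fate and insulin secretion, was at 0.401, 3.99 and 3.19 CPM in WT-2404, WT-1860 and WT-2067. It was at 4.21, 3.45 and 8.10 CPM in Het-2066, Het-1770 and Het-2042, and at 5.01, 6.19, 2.77 and 2.73 CPM in KO-2079, KO-2070, KO-2124 and KO-2126. The groups overlapped, with WT-2404 alone below 1 CPM. Mafa, which encodes an activator of insulin transcription that marks mature beta cells, was at 0.201, 1.42 and 1.90 CPM in the WT libraries, at 3.60, 0.932 and 4.60 CPM in the Het libraries and at 2.35, 5.40, 2.03 and 1.62 CPM in the KO libraries, in the same order of mice. Het-1770 lay below WT-1860 and WT-2067, so the Mafa ranges overlapped as well.

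Neurod1, a basic helix-loop-helix factor of all islet endocrine cells, was at 0.267, 3.45 and 0.858 CPM in WT, at 5.53, 2.24 and 3.38 CPM in Het and at 1.36, 3.82, 1.34 and 2.12 CPM in KO libraries. Its order differed from that of Nkx6-1 and Mafa, with WT-1860 above 3 of the KO libraries. Neurod1 shares 201 exonic bases with Cerkl on the same strand in the GENCODE annotation, so its counts carry that uncertainty. Isl1, a LIM-homeodomain factor of endocrine cells that is also made in nerve and mesenchymal cells, was at 0.819, 3.72 and 1.65 CPM in WT, at 4.21, 2.61 and 2.76 CPM in Het and at 2.29, 1.98, 2.58 and 1.72 CPM in KO libraries. All KO values of Isl1 lay below all Het values, by a gap from 2.58 to 2.61 CPM that is far smaller than the spread within either group.

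Pdx1, a homeodomain factor of pancreas development that activates insulin in the adult, was less low in WT-2404 than the other members. It was at 1.90, 3.12 and 4.60 CPM in WT, at 4.04, 4.29 and 3.56 CPM in Het and at 3.59, 3.69, 3.55 and 2.93 CPM in KO libraries. Its highest level was 2.41 times its lowest. The same ratio was 5.14 for Isl1 and between 15.2, for Abcc8, and 26.9, for Mafa, in the other 7 genes. In WT-2404 Pdx1 had 114 counts, its largest raw count in any library, and Nkx6-1 had 24.

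Of the glucose sensing genes, Slc2a2, which encodes the glucose transporter GLUT2, was at 0.952, 7.88 and 6.01 CPM in WT, at 12.9, 6.62 and 18.2 CPM in Het and at 7.92, 19.6, 5.62 and 7.08 CPM in KO libraries. KO-2070 held the highest value of all 10 and the other 3 KO libraries, at 5.62 to 7.92 CPM, lay close to WT-1860, WT-2067 and Het-1770. G6pc2, the islet glucose-6-phosphatase subunit that removes phosphate from glucose-6-phosphate, was at 4.06, 52.8 and 35.4 CPM in WT, at 55.4, 55.2 and 104.0 CPM in Het and at 42.7, 66.0, 52.7 and 49.0 CPM in KO libraries. All Het libraries were above all WT libraries for G6pc2, although Het-1770 and WT-1860 differed by little.

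Abcc8, the sulphonylurea receptor subunit of the ATP-sensitive potassium channel, was at 2.07, 22.2 and 10.5 CPM in WT, at 19.9, 15.1 and 31.4 CPM in Het and at 14.0, 26.5, 18.4 and 11.8 CPM in KO libraries. Slc30a8, the zinc transporter ZnT8 that loads zinc into insulin granules, was at 1.59, 16.2 and 8.33 CPM in WT, at 24.6, 14.7 and 22.9 CPM in Het and at 16.6, 18.6, 9.31 and 9.91 CPM in KO libraries. For both genes WT-1860 lay inside the Het and KO ranges, WT-2404 lay far below, and the groups overlapped.

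**Figure D1:**
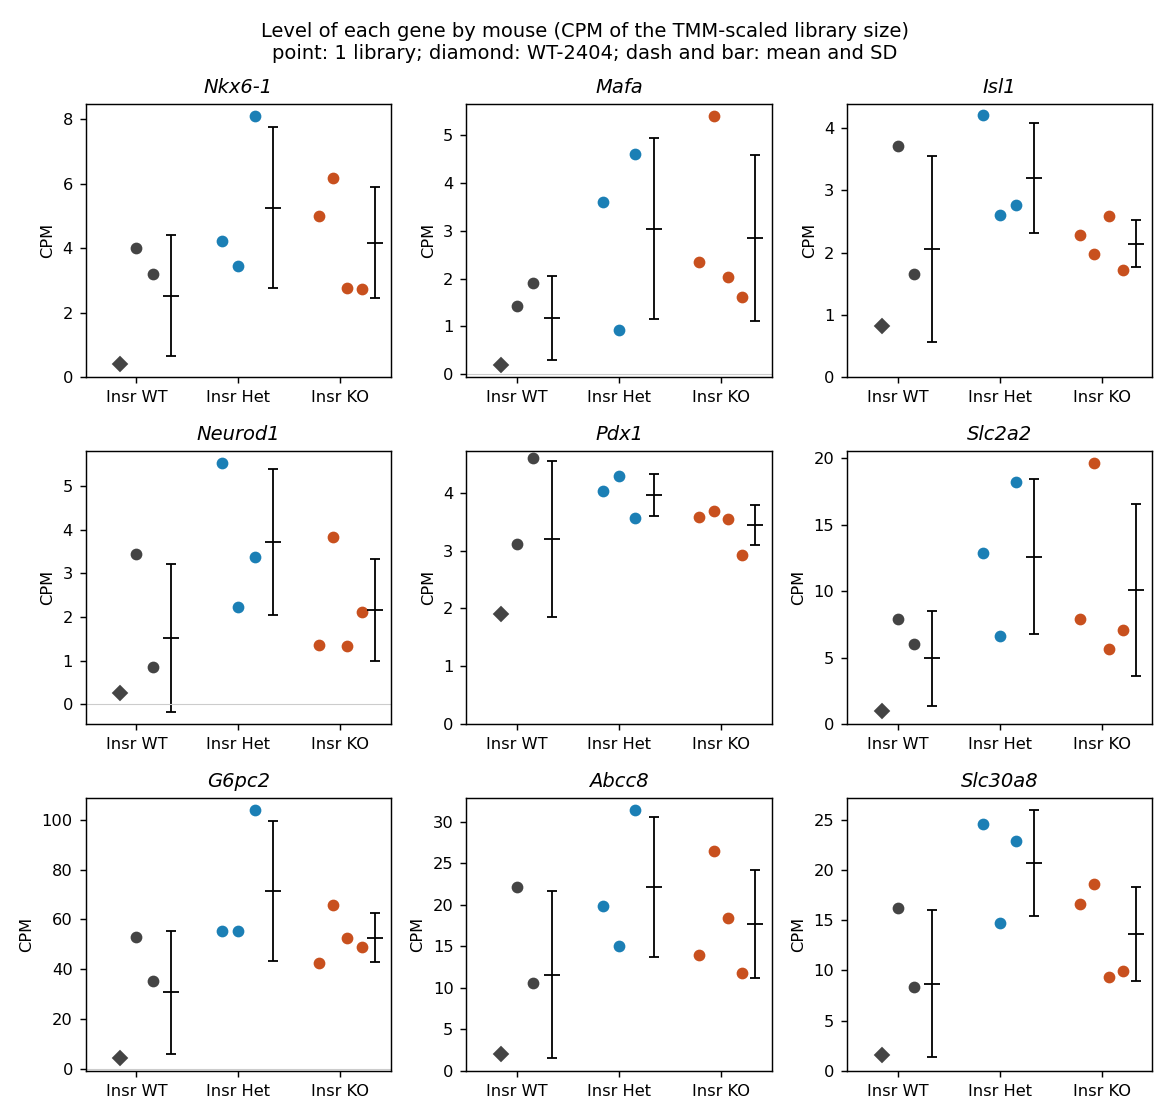
Level of each of the 9 genes in CPM of the TMM-scaled library size (vertical axis, linear), 1 point per library, in Insr WT (3), Insr Het (3) and Insr KO (4) mice, with the mean and SD of each group beside the points. The diamond is WT-2404, the lowest point in every panel on this TMM-scaled axis. Pdx1 was there at 1.90 CPM against 2.93 to 4.60 CPM elsewhere, and G6pc2 at 4.06 CPM against 35.4 to 104.0 CPM.

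Levels of different genes were compared per kilobase of merged exons. G6pc2 was first in all 10 libraries, at 26.2 ± 12.6 CPM per kilobase (SD, n = 10). Slc30a8 followed at 7.24 ± 3.58 CPM per kilobase (SD, n = 10) and lay above Abcc8 in 10 of 10 libraries. Among Abcc8, Pdx1 and Slc2a2, at 2.12, 1.63 and 1.61 CPM per kilobase, neighbours in the order were not separated. Abcc8 and Pdx1 each lay above the next gene in 7 of 10 libraries. The SD of the log2 ratio between neighbours (0.88 and 1.0) exceeded its mean (0.14 and 0.34). Abcc8 lay above Slc2a2 in every library but KO-2070. Nkx6-1 was at 1.28 CPM per kilobase and below Slc2a2 in 9 of 10 libraries, by a mean log2 ratio (0.28) under its SD (0.32). Neurod1, Mafa and Isl1, at 0.892, 0.878 and 0.615 CPM per kilobase, did not differ beyond their spread. The place of Pdx1 in this order was the least stable, since it was the second of the 9 genes in WT-2404 and the seventh in Het-2042 and KO-2070.

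The members lie on 6 chromosomes in the GENCODE M21 annotation of GRCm38. Nkx6-1 (chr5:101658139-101664996) and Pdx1 (chr5:147269959-147275848) are on chromosome 5, Neurod1 (chr2:79452521-79456751) and G6pc2 (chr2:69211073-69227841) on chromosome 2, and Mafa (chr15:75745490-75748228) and Slc30a8 (chr15:52295553-52335798) on chromosome 15. Isl1 (chr13:116298281-116309689), Slc2a2 (chr3:28697903-28731359) and Abcc8 (chr7:46104523-46180033) are alone on theirs. Neurod1 is the 1 member whose exons overlap those of another annotated gene, and antisense genes that pass over Abcc8, Pdx1 and Slc2a2 share 0 exonic bases with them.

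Upstream sequence was taken from the RefSeq promoter table (GRCm38.p6), which held 6 of the 9 genes, and not for Mafa, Abcc8 and Slc30a8. Sequence is shown for G6pc2 and Slc2a2, whose levels followed those of islet secretory genes with and without WT-2404, and for Isl1 and Pdx1, the members with the lowest such correlations without it, as described after them. Each runs 5′ to 3′ on the strand of the gene and stops where the GENCODE gene begins. Capitals mark TAAT on either strand, the core of many homeodomain sites, and CANNTG, the E-box bound by basic helix-loop-helix factors. The regions are chr2:69210823-69211072 on the plus strand for G6pc2, chr3:28697653-28697902 on the plus strand for Slc2a2, chr13:116309690-116309938 on the minus strand for Isl1 and chr5:147269847-147269958 on the plus strand for Pdx1.
G6pc2: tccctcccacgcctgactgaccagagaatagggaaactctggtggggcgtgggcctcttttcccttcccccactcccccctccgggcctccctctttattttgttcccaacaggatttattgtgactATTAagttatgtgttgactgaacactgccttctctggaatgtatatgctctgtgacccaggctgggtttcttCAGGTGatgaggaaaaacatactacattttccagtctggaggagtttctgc
Slc2a2: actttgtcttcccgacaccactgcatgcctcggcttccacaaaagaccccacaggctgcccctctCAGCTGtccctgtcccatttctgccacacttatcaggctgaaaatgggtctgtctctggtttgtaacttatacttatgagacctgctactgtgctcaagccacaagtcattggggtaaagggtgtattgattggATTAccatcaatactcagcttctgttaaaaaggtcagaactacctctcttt
Isl1: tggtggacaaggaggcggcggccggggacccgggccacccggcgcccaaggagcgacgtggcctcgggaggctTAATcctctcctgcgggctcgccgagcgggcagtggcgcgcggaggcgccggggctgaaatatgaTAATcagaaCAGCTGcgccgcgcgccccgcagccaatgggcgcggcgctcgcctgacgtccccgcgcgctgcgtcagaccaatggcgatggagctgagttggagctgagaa
Pdx1: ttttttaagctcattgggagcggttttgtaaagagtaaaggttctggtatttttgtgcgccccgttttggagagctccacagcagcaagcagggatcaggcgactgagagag

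Over the 250 bases before the RefSeq start, G6pc2 and Slc2a2 each had 1 TAAT match and 1 CANNTG match, Isl1 had 2 TAAT matches and 1 CANNTG match, and Pdx1 had 0 and 3. The 3 Pdx1 matches lie downstream of the stretch shown. Nkx6-1 had neither, and Neurod1 had 1 CANNTG match. TGCTGAC, the arm of a Maf recognition element, searched on both strands, was in none of these 6 windows, which says only that these letters are absent there. The table has a further G6pc2 start inside the gene, whose upstream 250 bases held 3 TAAT, 4 CANNTG and 2 TGCTGAC matches. Of the 32851 entries in the table, 54.9% held TAAT, 66.2% held CANNTG and 3.81% held TGCTGAC in that window, so the first pair are common letters and a match is a description, not a binding site.

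The levels of 8 of the 9 genes, all but Pdx1, were correlated with those of islet secretory genes from mouse to mouse. The reference was the mean log2 CPM of 9 genes of granins and prohormone processing (Chga, Chgb, Scg2, Scg3, Scg5, Pcsk1, Pcsk2, Cpe and Ptprn). Both axes share the scaling of the library, which adds to any such correlation. Abcc8 had Pearson r = 0.987 and Spearman rho = 0.952 with it over 10 mice (permutation p = 2e-05 and 0.00015, 0.00018 and 0.000675 after adjustment over the 9 genes). Leaving out the 2 libraries farthest from the median of the reference, WT-2404 and Het-2042, gave r = 0.903. Slc2a2, G6pc2, Slc30a8 and Nkx6-1 had r of 0.976, 0.971, 0.967 and 0.978 over the 10 libraries, and 0.887, 0.828, 0.827 and 0.822 without those 2 libraries. Neurod1 went from r = 0.894 to 0.810 and Mafa from 0.899 to 0.607. The adjusted permutation p of Pearson r over 10 mice was at most 0.00267 for these 7 genes, and that of Spearman rho was at most 0.0389, for Mafa, whose rho was 0.685.

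Isl1 passed the same tests. It had r = 0.788 and rho = 0.746 over 10 mice (adjusted permutation p = 0.0160 and 0.0221), and r was 0.426 without WT-2404 and Het-2042, so its Pearson correlation rested on those libraries. Pdx1 had r = 0.699 and rho = 0.273 (adjusted permutation p = 0.0666 and 0.448), and r was -0.14 without the 2 libraries. Without WT-2404 alone, r was 0.404 for Isl1 and -0.16 for Pdx1, against 0.708 to 0.937 for the other 7 genes. Between the members themselves, the 36 pairwise r values had a median of 0.854 over 10 libraries and 0.640 without WT-2404. Without it, the 8 pairs that include Pdx1 ran from -0.24 to 0.0086, as a description of 9 libraries. A difference between Pdx1 or Isl1 and the other genes in this respect was not tested.

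**Figure D2:**
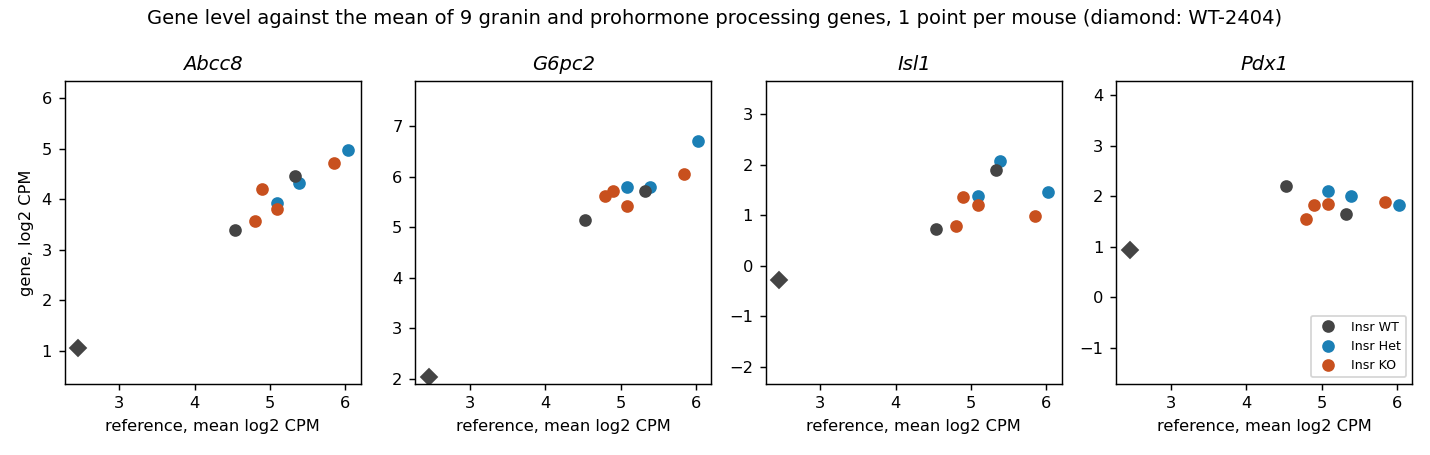
Level of Abcc8, G6pc2, Isl1 and Pdx1 (vertical axes, log2 CPM, each spanning the same log2 range) against the mean log2 CPM of the 9 granin and prohormone processing genes (horizontal axis), 1 point per library, coloured by genotype label. Abcc8 and G6pc2 follow a line through all libraries, while the 9 Pdx1 points other than WT-2404 (diamond) lie level, with r = -0.16 among them.

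The genes most like the mean profile of the 9 members over the 10 libraries, by Pearson r of log2 CPM, were Ins1 (0.996), Ins2 (0.996), Iapp (0.995), Scg5 (0.994), Scg2 (0.993), Pcsk2 (0.992), Ucn3 (0.992) and Tmem27 (0.991). Ins1 and Ins2 encode insulin, Iapp the co-secreted peptide amylin and Ucn3 a peptide of mature beta cells. For single members, the gene with the highest r was Chga for Nkx6-1 (0.988), Ucn3 for Slc30a8 (0.991), Ins1 for Abcc8 (0.989), Sez6l for G6pc2 (0.985), Sphkap for Slc2a2 (0.983), Pycrl for Mafa (0.961) and Car10 for Neurod1 (0.943). For Isl1 and Pdx1 they were Llph (0.943) and 1810063I02Rik (0.939), and none of the 3 genes nearest to either was in the islet lists used here. Without WT-2404, a check added after seeing the data, 6 of the 8 genes nearest to the mean profile were the same, with r of 0.980 for Ins1 and 0.978 for Ins2, and Chic1 (0.982) and Resp18 (0.962) took the places of Ucn3 and Tmem27. The nearest gene was then the same for Nkx6-1, Slc2a2 and Slc30a8, and another for the other members (Nfu1 for Pdx1, 0.911, and Sdhaf2 for Isl1, 0.952). Ins2 was at 213.1, 2816 and 1503 CPM in WT-2404, WT-1860 and WT-2067, at 3923, 2614 and 4935 CPM in the Het libraries and at 2362, 4158, 2327 and 1767 CPM in the KO libraries. Gcg, the alpha cell hormone glucagon, followed the same order at its ends, with 81.4 CPM in WT-2404 and 1631 CPM in Het-2042, as did Sst, the delta cell hormone, from 4.83 CPM in WT-2404, although its highest level, 75.6 CPM, was in KO-2070. Ppy, the pancreatic polypeptide gene, ranged from 4.26 CPM in WT-2404 to 17.8 CPM in WT-1860.

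Markers of other cells moved with the same library. The sum of 7 acinar markers was 19987 CPM in WT-2404 and 158969 to 574737 CPM elsewhere, and the sum of 6 fibroblast markers was 4307 CPM in WT-2404 and 424.3 to 1788 CPM elsewhere. The sum of 7 ductal markers was 714.6 to 1152 CPM in the WT libraries and 337.6 to 580.6 CPM in the Het and KO libraries, and that of 6 myeloid markers 295.1 to 1050 CPM in WT and 88.5 to 328.2 CPM in the others. The 8 neural and Schwann cell markers summed to 2.37 to 9.95 CPM, and 5 of them, Sox10, Prph and Chrna3 among these, had 0 counts in at least 1 library. Irx1, an alpha cell factor, also had 0 counts in at least 1 library, and the 5 alpha and delta cell factors summed to 44.8 CPM in WT-2404 and 9.30 to 23.3 CPM elsewhere. The part of these cells in the levels of Isl1 and Pdx1 was not tested.

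The comparison of libraries labelled Insr KO with those labelled Insr WT asks how far the beta cell genes differ when both Insr alleles are floxed under an acinar driver. With edgeR, 0 of the 9 genes and 0% of the 13688 tested genes reached an adjusted p of 0.05. At an unadjusted p under 0.05 there were 0 members, beside 9.61% of all genes higher and 13.9% lower. All 9 fitted log2 fold changes were above 0, as were 51.9% of all genes (48.1% below 0), with a median of 0.66 beside 0.025 for all genes. The ranges of 0 members were separate, beside 6.74% of all genes with higher and 9.15% with lower separate ranges. The values ran from 0.10 for Isl1 to 1.33 for Mafa. The mean level of Mafa was 1.17 ± 0.876 CPM (SD, n = 3) for WT and 2.85 ± 1.73 CPM (SD, n = 4) for KO, which gave a log2 fold change of 1.33 (SE 0.75, adjusted p = 0.293 in edgeR) and a 95% interval from -0.31 to 2.96. Slc2a2 had 1.04 (SE 0.67), G6pc2 0.78 (SE 0.62), Nkx6-1 0.76 (SE 0.64), Slc30a8 0.66 (SE 0.59), Abcc8 0.62 (SE 0.61) and Neurod1 0.51 (SE 0.73), with edgeR adjusted p from 0.360 to 0.701. Pdx1 had the narrowest interval, from -0.54 to 0.79 around 0.12 (SE 0.31, adjusted p = 0.832 in edgeR).

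All 9 KO against WT values were lower without WT-2404, to a degree that differed between genes. Without it the median of the 9 was 0.14, 6 of 9 were above 0, and Isl1, Neurod1 and Pdx1 were at -0.30, -0.062 and -0.16. Mafa and Slc2a2 kept the largest values, 0.73 and 0.49, and G6pc2, Nkx6-1, Slc30a8 and Abcc8 were at 0.25, 0.20, 0.14 and 0.11. Without WT-1860 the median was 1.51, with 3 members at an unadjusted p under 0.05, beside 2490 of the 13889 genes tested there. Without KO-2070 the median was 0.49. Without WT-2067 edgeR called 1932 of all genes and 0 of the 9. DESeq2, which called 7.37% of all genes, called 0 of the 9, with a smallest adjusted p of 0.232. By library size alone, where the median of all genes was -1.17, the median of the 9 was -0.15 and 3 of 9 were above 0.

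The comparison of libraries labelled Insr Het with Insr WT gave larger values in the same direction, and it shares the WT libraries with the previous comparison. Again 0 of the 9 genes passed in edgeR, beside 0% of all genes. No member (0) was under an unadjusted p of 0.05, beside 8.26% of all genes higher and 11.6% lower. The 9 log2 fold changes ran from 0.32 for Pdx1 to 1.47 for Mafa with a median of 1.23, beside 0.0046 for all genes, of which 50.3% were above and 49.7% below 0. Slc30a8 had the smallest p. Its mean level was 8.70 ± 7.31 CPM (SD, n = 3) for WT and 20.7 ± 5.27 CPM (SD, n = 3) for Het, and its log2 fold change was 1.28 (SE 0.63, adjusted p = 0.277 in edgeR, 95% interval from -0.11 to 2.67). G6pc2, whose ranges did not overlap, had a mean of 30.7 ± 24.7 CPM (SD, n = 3) for WT and 71.5 ± 28.2 CPM (SD, n = 3) for Het, and a log2 fold change of 1.23 (SE 0.66, adjusted p = 0.304 in edgeR). It was the 1 member with higher, separate ranges, where 11.3% of all genes had them, and 0 members had lower, separate ranges, beside 13.5%. Slc2a2, Neurod1, Nkx6-1 and Abcc8 had 1.40, 1.34, 1.12 and 0.96. Without WT-2404 the median of the 9 fell to 0.72, with 9 of 9 above 0. Without WT-1860 it was 1.87, with 6 members at an unadjusted p under 0.05, beside 2055 of the 13889 genes tested there. Without WT-2067 edgeR called 1160 of all genes and 0 of the 9. DESeq2 called 2.38% of all genes and 0 of the 9. At an unadjusted p under 0.05 in DESeq2 there were 3 members, beside 2967 of the 13688 tested genes. By library size alone, where the median of all genes was -1.36, the 9 had a median of 0.34 and 7 were above 0.

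The comparison of Insr KO with Insr Het libraries, which does not involve WT-2404 directly, sets 2 floxed alleles against 1. All 9 log2 fold changes were below 0, as were 48.5% of all genes (51.5% above 0), with a median of -0.36 beside 0.0079 for all genes. They ran from -0.14 for Mafa to -0.83 for Neurod1 (SE 0.71), and the adjusted p was 1.0 for each in edgeR, which called 0% of all genes. At an unadjusted p under 0.05 there were 0 members, 0.402% of all genes higher and 0.351% lower. Isl1 had a mean of 3.19 ± 0.884 CPM (SD, n = 3) for Het and 2.14 ± 0.375 CPM (SD, n = 4) for KO, and a log2 fold change of -0.56 (SE 0.46) and an interval from -1.55 to 0.43. It was the 1 member with lower, separate ranges in KO, beside 1.16% of all genes, and 0 had higher ones, beside 1.3%. Without Het-2042 the median of the 9 was -0.073 and 4 of 9 were above 0. The intervals of Abcc8 (-1.67 to 0.99), G6pc2 (-1.77 to 0.88) and Slc30a8 (-1.89 to 0.66) held values on both sides of 0.

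**Figure D3:**
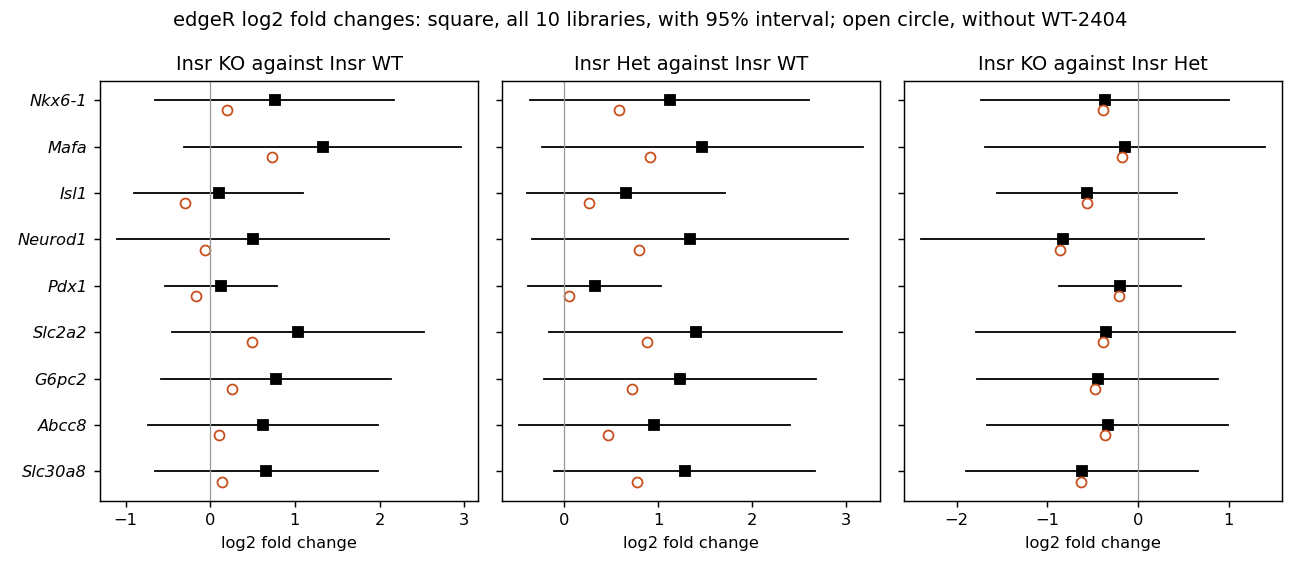
edgeR log2 fold changes (horizontal axes) of the 9 genes in the 3 comparisons, as squares with 95% intervals over all 10 libraries, and as open circles without WT-2404. Every interval spans 0, and in KO against WT all 9 circles lie left of their squares, with Isl1, Neurod1 and Pdx1 at -0.30, -0.062 and -0.16.

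To set the islet content of each piece aside, each gene was expressed as the log2 ratio of its count to the 9 granin and prohormone processing genes of the same library, with 0.5 added to each count. This ratio does not depend on scaling between libraries, and it is not per length, so it is compared between mice and not between genes. The SD over the 10 libraries was 0.20 for Abcc8, against 1.08 for its log2 CPM. It was 0.29 for Nkx6-1, 0.31 for Slc30a8, 0.33 for Slc2a2 and 0.38 for G6pc2, against 1.09 to 1.24 before. Neurod1 and Mafa kept more spread, 0.55 and 0.60 against 1.15 and 1.20, and their counts were the lowest, down to 14 and 10 in a library. Isl1 had 0.60 against 0.63, and Pdx1 had a larger SD as a ratio, 0.77, than as a level, 0.34. Without WT-2404 the ratio and the level had SDs of 0.18 and 0.52 for Abcc8, 0.22 and 0.43 for G6pc2, 0.58 and 0.79 for Mafa, 0.58 and 0.82 for Neurod1, 0.51 and 0.44 for Isl1 and 0.55 and 0.20 for Pdx1. The ratios of Mafa and Neurod1 thus spread at least as much as those of Isl1 and Pdx1 there.

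The ratio of Abcc8 was -1.40, -0.86 and -1.13 in WT-2404, WT-1860 and WT-2067, -1.07, -1.17 and -1.05 in the Het libraries and -1.28, -1.12, -0.70 and -1.23 in KO-2079, KO-2070, KO-2124 and KO-2126. The groups overlapped and the KO minus WT difference was 0.049 (SE 0.21). The ratio of Pdx1 was -1.52, -3.67 and -2.33 in WT, -3.36, -2.98 and -4.18 in Het and -3.23, -3.94, -3.06 and -3.22 in KO libraries, so WT-2404 and WT-2067 were the highest of all and Het-2042 the lowest. Isl1 was highest in WT-2404 too, at -2.73, and at -4.82 to -3.30 in the other 9 libraries.

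Of the 27 comparisons of the ratio (9 genes in 3 contrasts), 0 had an unadjusted p under 0.05 in two-sided exact permutation tests, whose smallest possible p is 0.0286 for 3 against 4 mice and 0.1 for 3 against 3, and the smallest adjusted p was 0.9. In KO minus WT the differences were -0.86 (SE 0.66) for Pdx1, -0.74 (SE 0.41) for Isl1 and 0.57 (SE 0.41) for Mafa, with exact permutation p of 0.2, 0.143 and 0.229. G6pc2 and Slc2a2 differed by 0.35 (SE 0.36) and 0.26 (SE 0.25), and Nkx6-1, Slc30a8 and Neurod1 by 0.13, 0.066 and 0.025. Without WT-2404 the Pdx1, Isl1 and G6pc2 differences were -0.36, -0.44 and 0.038. In Het minus WT the values were -1.0 (SE 0.72) for Pdx1, -0.53 (SE 0.48) for Isl1 and 0.49 (SE 0.53) for Neurod1. Leaving out WT-2404 moved the Het minus WT value of Pdx1 to -0.51. In KO minus Het the values were -0.47 (SE 0.46) for Neurod1 and -0.29 (SE 0.26) for Slc30a8. At this number of mice the level per islet secretory gene could not be separated between the labels for any of the 9 genes.

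With Ins1, Ins2 and Iapp as the reference in place of the secretory genes, the SD over libraries was 0.21 for Abcc8, 0.26 for Slc30a8, 0.28 for G6pc2, 0.31 for both Nkx6-1 and Slc2a2, 0.50 for Neurod1, 0.55 for Mafa, 0.73 for Isl1 and 0.97 for Pdx1. Without WT-2404 it was 0.51 for Neurod1, 0.59 for Mafa, 0.47 for Isl1 and 0.59 for Pdx1, so the larger values of Isl1 and Pdx1 rested on that library. The 2 references differed in WT-2404: G6pc2 there was below the other 9 libraries against the secretory genes (-0.43, others 0.20 to 0.82) and within their range against the hormones (-4.51, others -4.72 to -3.78). Chgb, Cpe and Ptprn, at 10.3, 16.6 and 4.53 CPM in WT-2404, were less low there than Chga, at 21.3 CPM against 125.4 to 408.0 CPM elsewhere. With the hormones 3 of 9 differences in KO minus WT and 1 of 9 in Het minus WT were above 0.

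**Figure D4:**
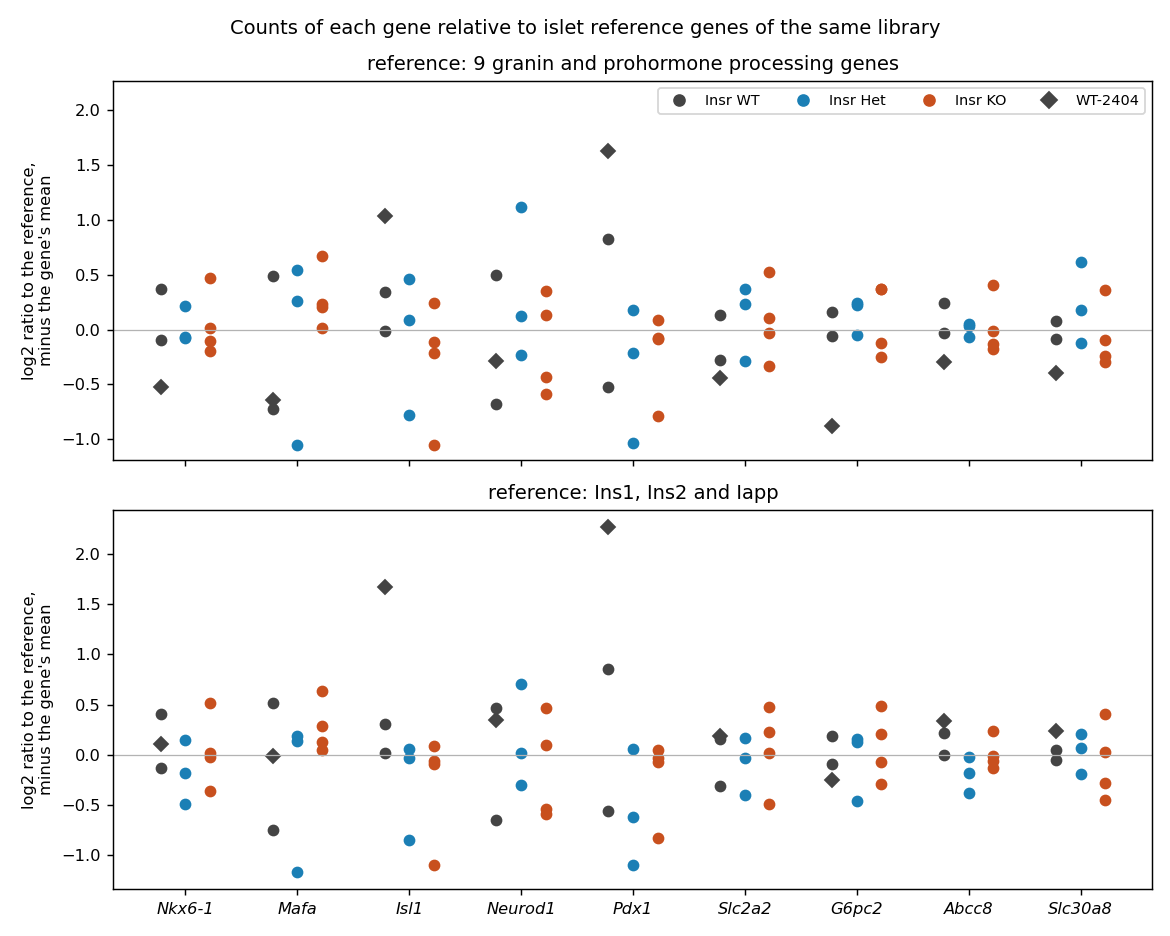
Log2 ratio of each gene's count to 9 granin and prohormone processing genes (upper panel) and to Ins1, Ins2 and Iapp (lower panel) of the same library, minus the gene's mean ratio (vertical axes), 1 point per library coloured by genotype label. Points of Abcc8, Slc30a8, Slc2a2, G6pc2 and Nkx6-1 lie close together, while those of Mafa, Isl1, Neurod1 and Pdx1 spread more, with WT-2404 (diamond) at the top for Isl1 and Pdx1.

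Other genes of the beta cell were read from lists of 25 genes, of which 24 were tested. Of 6 further transcription factors tested (Nkx2-2, Pax6, Foxa2, Rfx6, Insm1 and Glis3), 4 were above 0 for KO and 5 for Het mice set against WT, with medians of 0.50 and 0.68, and 0 passed in edgeR. Mnx1, the seventh of that list, had at most 7 counts and was not tested. Of 9 genes that couple glucose and other signals to secretion, among them the channel genes Kcnj11, Cacna1c, Cacna1d and Trpm5 and the receptor genes Glp1r, Gipr and Ffar1, 6 and 7 were above 0, with medians of 0.18 and 0.32, and 0 passed. Of 9 secretory genes (Ins1, Ins2, Iapp, Ucn3, Ero1lb, Syt7, Sytl4, Stx1a and Snap25), 8 were above 0 in either comparison, with medians of 0.70 and 1.18, and 0 passed.

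Without WT-2404, likewise added after seeing the data, the median over these 24 genes was 0.14 for KO and 0.37 for Het libraries set against WT, beside 0.60 and 0.79 with it, with 15 and 19 above 0, beside 18 and 20, and 0 passed in edgeR. The medians were 0.11 and 0.33 for the transcription factors, -0.20 and 0.011 for the coupling genes and 0.25 and 0.69 for the secretory genes.

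In both comparisons with WT the smallest unadjusted p among these genes was that of Syt7, a calcium sensor of granule release. It had a log2 fold change of 0.89 (SE 0.41, adjusted p = 0.221 in edgeR) for KO and 1.15 (SE 0.44, adjusted p = 0.203) for Het libraries. Sytl4, the granule docking protein granuphilin, had 0.99 (SE 0.39, adjusted p = 0.211 in edgeR) in Het against WT and 0.63 (SE 0.37) in KO against WT. Kcnj11, the pore partner of Abcc8 in the potassium channel, had 0.71 (SE 0.42) in KO against WT, and Iapp had 1.24 (SE 0.64) in Het against WT. Below 0 with the smallest p were Glis3 (-0.38, SE 0.28), Trpm5 (-0.54, SE 0.45) and Cacna1c (-0.52, SE 0.44) in KO against WT, and Stx1a (-0.77, SE 0.52), Trpm5 (-0.55, SE 0.49) and Glis3 (-0.23, SE 0.30) in Het against WT. In KO against Het, Cacna1d, Stx1a and Gipr had 0.20, 0.49 and 0.30, and Rfx6, Glp1r and Sytl4 had -0.62, -0.36 and -0.36. The hormones themselves did not pass either: Ins2 had 0.81 (SE 0.68, adjusted p = 0.474 in edgeR) and Ins1 0.68 (SE 0.63) with KO, and 1.34 (SE 0.72, adjusted p = 0.301) and 1.20 (SE 0.67) with Het mice. Gcg and Sst had 0.86 and 0.89 in KO against WT, and Ppy -0.0078. Without WT-2404 the KO values were 0.30 for Ins2, 0.17 for Ins1, 0.36 for Gcg, 0.39 for Sst and -0.38 for Ppy. Those of Syt7, Sytl4 and Kcnj11 were 0.45, 0.25 and 0.44, and those of Glis3, Trpm5 and Cacna1c -0.081, -0.63 and -0.81. The Het values without it were 0.85 for Ins2, 0.72 for Ins1, 0.76 for Iapp, 0.73 for Syt7 and 0.63 for Sytl4, and -0.91, -0.64 and 0.086 for Stx1a, Trpm5 and Glis3, the last now above 0.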

How the data were processed

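The authors deposited 1 table of raw, whole-number counts, with genes named by symbol. Its 10 columns of libraries were all mapped to samples (0 left over). Per the labels' protocols, frozen tissue was pulverised, RNA came from an RNeasy kit, and library preparation used a kit for mRNA that keeps strand. The submitters' processing notes name the build mm10 and the tools DRAGEN, STAR and Cufflinks with no version or role. The counting tool and its use of strand are not given in the sources used here. The 2 rows that name no gene (2.59% to 8.71% and 0.101% to 0.584% of counts) stayed out.

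Of 24421 genes, 13688 passed edgeR's filterByExpr (minimum count 10). They were tested with edgeR 4.0.16 (TMM factors, robust quasi-likelihood test, two-sided, Benjamini-Hochberg adjustment over all tested genes, threshold 0.05) in 1 fit over all libraries. The method was tested on simulated data. Those data gave all genes the same spread between mice and held no library set apart as WT-2404 is. A SE is that of the quasi-F statistic. Correlations used log2 CPM with a prior count of 2 and 100000 permutations. Every pair of libraries within a group differed by more than sampling noise (chi-square per degree of freedom 26.5 to 988.1). DESeq2 1.42.0, library size alone, enzymes left out of the scaling, no filter, another reference and offset, and each library left out were the alternatives. All 9 members were named, as were hormones, for each comparison the 3 other beta cell genes in each direction with the smallest p, and the genes with the highest r. Members and lists were chosen with earlier results of these data known. A further allele that all groups carry and some genes of the lists are not reported here.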

Additional observations from a re-analysis of the deposited data

Results flagged for a closer look

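Slc2a2 was at 19.6 CPM in KO-2070, above the other 3 libraries labelled Insr KO, at 5.62 to 7.92 CPM, by a gap that is 0.836 of the range of the group, past the 95% critical value of Dixon's test. Of 18 measures tested in this way, 1 was past the critical value, and chance alone gives about 0.9. KO-2070 also held the highest KO level of Mafa, Neurod1, Nkx6-1, Pdx1, G6pc2, Abcc8 and Slc30a8, but not of Isl1. As a ratio to the granin and prohormone processing genes of the same library, Slc2a2 in KO-2070 was at -1.55 and at -2.40 to -1.97 in the other KO libraries, which is not past the critical value. Groups of 3 libraries were not tested.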

How the results depend on the processing

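No paired analysis was possible because the mouse numbers in the labels are not shared between groups. With 3 or 4 mice a group, intervals were wide, and Mafa and Neurod1 had as few as 10 and 14 counts. The number of genes called in edgeR was 0 for KO against WT and Het against WT. It was 1009 and 326 with DESeq2, 2841 and 3140 with library size alone, and, with 1 library left out, 0 to 1932 and 0 to 1160, where the calls came without WT-2067. In KO against Het 0 genes were called in each of these. No member was called under any of them. No ratio passed its threshold, but with 1 library left out the exact permutation test had too few splits for any ratio to pass. With all libraries its smallest possible p was 0.0286 for 3 against 4 mice and 0.1 for 3 against 3, before adjustment. At 3 against 3 no ratio could pass, and at 3 against 4 only if many reached that smallest p together. The lack of passing ratios is therefore no sign that they are stable to the processing.

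Library size alone turned the KO against WT log2 fold change of Nkx6-1 (-0.013), Isl1 (-0.78), Neurod1 (-0.48), Pdx1 (-0.78), Abcc8 (-0.15) and Slc30a8 (-0.17), and that of Het against WT of Isl1 (-0.43) and Pdx1 (-0.78). This scaling moved the median of all genes too, to -1.17 and -1.36. DESeq2, enzymes left out of the scaling and no filter kept the sign of all 27 log2 fold changes. With 1 library left out, the KO against WT log2 fold change ran from -0.30 to 0.85 for Isl1, from -0.062 to 2.02 for Neurod1 and from -0.16 to 0.48 for Pdx1. In KO against Het it ran from -0.59 to 0.11 for Nkx6-1, -0.61 to 0.30 for Mafa, -0.88 to 0.017 for Slc2a2 and -0.59 to 0.0070 for Abcc8.

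Ratios against Ins1, Ins2 and Iapp turned in KO minus WT for Nkx6-1 (-0.091), Neurod1 (-0.20), Abcc8 (-0.17) and Slc30a8 (-0.15). In Het minus WT they turned for Nkx6-1 (-0.30), Mafa (-0.20), Slc2a2 (-0.10), G6pc2 (-0.0087), Abcc8 (-0.38) and Slc30a8 (-0.049), and in KO minus Het for Slc2a2 (0.15) and G6pc2 (0.14). The cause was not tested. An offset of 2 counts turned none of the 27 ratios. With 1 library left out, the KO minus WT ratio ran from -0.091 to 0.36 for Nkx6-1, -0.24 to 0.35 for Neurod1, -0.086 to 0.19 for Abcc8 and -0.076 to 0.17 for Slc30a8. In Het minus WT it ran from -0.11 to 0.34 for Nkx6-1, -0.10 to 0.69 for Mafa and -0.10 to 0.17 for Abcc8. In KO minus Het it ran from -0.12 to 0.12 for Nkx6-1, -0.12 to 0.68 for Mafa, -0.56 to 0.067 for Isl1, -0.20 to 0.41 for Pdx1, -0.24 to 0.092 for Slc2a2, -0.14 to 0.064 for G6pc2 and -0.11 to 0.084 for Abcc8.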
